A study of Mus musculus with 5 samples.

Results

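The metallothionein and zinc response genes described here were Mt1, Mt2, Mtf1 and Slc30a1. They were taken by gene symbol and made up 4 of the 40879 symbols listed for every library. The cells were BV-2, an established mouse microglial cell line, kept in culture. RNA was read at the 3′ ends of polyadenylated transcripts with QuantSeq, a method that primes from the poly(A) tail so that read numbers do not grow with transcript length, here as single reads of 75 bases. There were 5 libraries, 1 for each group: a control with neither agent named in its labels, urban particulate matter (UPM, airborne particles of city air, at 50 µg/mL for 23 h), and the same UPM exposure begun 1 h after pretreatment with the antidepressant trazodone (TZ), dosed at 1.25, 2.5 or 5 µg/mL. These last groups are called TZ 1.25, TZ 2.5 and TZ 5, and all 3 carry UPM. No group held TZ without UPM, and the sources used here do not say whether the control received a vehicle.

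Metallothioneins are small cysteine-rich proteins that bind zinc, copper and cadmium and buffer the free metal in the cell. MTF1 is the transcription factor that senses zinc. When zinc rises it binds metal response elements, short motifs in promoters, and turns on Mt1, Mt2 and Slc30a1, the last of which encodes ZnT1, the transporter that moves zinc out through the plasma membrane. Metallothionein genes also answer oxidative stress and glucocorticoids, and their RNA is induced in microglia and astrocytes in several kinds of brain injury.

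The promoters of the 3 target genes are shown because the core of the metal response element links them to MTF1. Each is the 250 bases before the annotated start from RefSeq, on the plus strand of build GRCm38.p6, an earlier build than the GRCm39 that the submitters' processing notes name. Capitals mark each core, TGCACNC or TGCGCNC read on either strand. Mt1 lies at chr8:94178839-94179088, Mt2 at chr8:94172368-94172617 and Slc30a1 at chr1:191906531-191906780.
Mt1: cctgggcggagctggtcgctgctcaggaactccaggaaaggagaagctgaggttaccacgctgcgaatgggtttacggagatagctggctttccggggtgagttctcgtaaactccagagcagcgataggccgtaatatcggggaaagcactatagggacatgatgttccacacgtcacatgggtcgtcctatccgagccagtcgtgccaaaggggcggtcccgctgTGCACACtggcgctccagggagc
Mt2: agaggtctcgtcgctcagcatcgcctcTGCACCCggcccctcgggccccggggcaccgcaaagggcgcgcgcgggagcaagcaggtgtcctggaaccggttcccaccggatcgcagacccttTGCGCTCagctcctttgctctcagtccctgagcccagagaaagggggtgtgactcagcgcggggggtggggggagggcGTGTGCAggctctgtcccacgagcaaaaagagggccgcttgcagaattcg
Slc30a1: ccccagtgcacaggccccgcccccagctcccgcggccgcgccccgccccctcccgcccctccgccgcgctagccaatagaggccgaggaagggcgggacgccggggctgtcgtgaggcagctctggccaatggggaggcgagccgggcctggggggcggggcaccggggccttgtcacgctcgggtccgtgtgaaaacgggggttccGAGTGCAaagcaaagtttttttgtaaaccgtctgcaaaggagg

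The search covered these 250 bases and the first 50 bases of each gene, counted from 1 at the annotated start, with -1 the base before it. Mt1 held 3 cores, at -23 to -17, 3 to 9 and 21 to 27, all on the gene's strand. Mt2 held 4, at -223 to -217 and -128 to -122 on the gene's strand and at -50 to -44 and 5 to 11 on the opposite strand. Slc30a1 held 2, at -43 to -37 and 31 to 37, both on the opposite strand. Mtf1, whose window lies at chr4:124802299-124802548 with the 50 bases after it, held 0. Of 32851 RefSeq promoter windows of the same length, 25.7% held at least 1 core, 7.11% at least 2, 1.97% at least 3 and 0.517% at least 4. The core of the antioxidant response element, TGACNNNGC on either strand, occurred once in Mt2 at -79 to -71 and once in Slc30a1 at -82 to -74. It was found in neither the Mt1 window nor the Mtf1 window, and bases outside the windows were not searched. Of the 32851 windows, 12.4% held that motif. No match overlapped another, and a match describes letters, not binding. The counts and positions follow the annotated start, and whether these cells use that start was not tested. A start placed elsewhere would shift the positions and could change the counts.

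**Figure D1:**
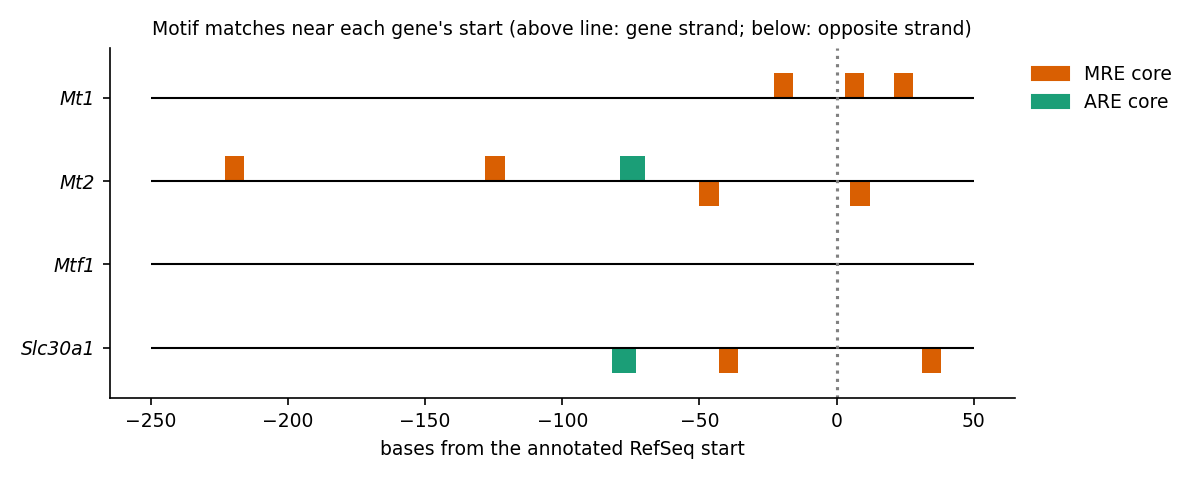
Positions of the metal response element core (MRE, orange) and the antioxidant response element core (ARE, green) in the window of each gene, in bases from the annotated RefSeq start; boxes above a line are on the gene's strand and boxes below it on the opposite strand. Mt1 has 3 MRE cores, Mt2 has 4, Slc30a1 has 2 and Mtf1 has 0.

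Totals ran from 6829720 to 7696168 counts per library. Levels below are CPM (the count for every 1000000 counts of the library) scaled by the TMM factors of edgeR, which lay between 0.991 and 1.01. Parentheses hold 95% intervals that cover counting error only. The reads carry no molecular identifiers, so copies of the same molecule could not be told apart and the intervals may be too narrow. For a count of 0 a fixed limit of 3 counts was used, or 0.392 to 0.435 scaled CPM by library. The upper end of the 95% Poisson interval there is higher, at 0.482 CPM in UPM to 0.535 in TZ 5. All 8 microglia and macrophage markers were at a mean of at least 10 CPM, summing to 2641 to 3007 CPM in a library. The homeostatic microglia markers Tmem119, P2ry12 and Sall1 did not reach it, at 3.06 to 7.45 CPM for Tmem119, 0.666 to 1.60 for P2ry12 and 0 to 0.139 for Sall1. The marker sums of astrocytes, neurons, oligodendrocytes, fibroblasts and endothelial cells were each at most 3.90 CPM, with the defining genes Aqp4 and Mog at 0. Mitochondrial ribosomal RNA took 7.94% of control counts and 8.80% of UPM counts, and 8.64%, 7.001% and 7.06% with TZ 1.25, TZ 2.5 and TZ 5, so its share moved with the groups, and its part in the results below was not tested.

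Folds compare 2 libraries, not 2 conditions, because there were no replicates. A gene is said to pass the 1.5-fold rule when its fold is at least 1.5 either way, its interval leaves out 1 and its pair averages 10 CPM or more. The 1.25-fold rule is the same with the lower limit. The 3 TZ comparisons share the UPM library with each other and with UPM against control.

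Mtf1, the zinc sensor, varied among the 5 libraries by no more than counting error. Its level was 29.7 CPM (25.9 to 33.9) in control cells, 31.2 (27.4 to 35.5) in UPM, and 31.0 (27.1 to 35.4) with TZ 1.25, 27.9 (24.1 to 32.1) with TZ 2.5 and 30.9 (26.9 to 35.3) with TZ 5, from 193 to 239 counts. All 5 intervals overlapped, and no neighbours in the order of levels (TZ 2.5, control, TZ 5, TZ 1.25, UPM) differed beyond counting error. The highest over the lowest gave 1.12-fold (0.924 to 1.36), an interval that holds 1. The fold was 1.05 (0.873 to 1.27) for UPM against control, and against UPM 0.994 (0.825 to 1.20) at TZ 1.25, 0.892 (0.734 to 1.08) at TZ 2.5 and 0.989 (0.818 to 1.20) at TZ 5. The 3′ end of Mtf1 is overlapped on the opposite strand by the gene 1110065P20Rik, with 231 to 276 counts, and the sources used here do not say whether the authors counted by strand, so the reads of these genes cannot be told apart with certainty.

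Mt1, the metallothionein with the most counts in these libraries, was lowest in the control and highest in the TZ 2.5 and TZ 5 libraries. Its level was 369.5 CPM (355.9 to 383.5) in the control, from 2776 counts, and 512.7 (496.8 to 529.0) in UPM, from 3923. It was 521.2 (504.7 to 538.2) with TZ 1.25, 583.7 (565.9 to 602.0) with TZ 2.5 and 589.7 (571.7 to 608.1) with TZ 5, from 3761, 4044 and 4066 counts. The levels formed 3 steps whose intervals did not overlap: the control, then UPM with TZ 1.25, then TZ 2.5 with TZ 5. Among all symbols ordered by count, Mt1 stood in place 378 in control cells, 206 in UPM, and 198 with TZ 1.25, 172 with TZ 2.5 and 170 with TZ 5.

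**Figure D2:**
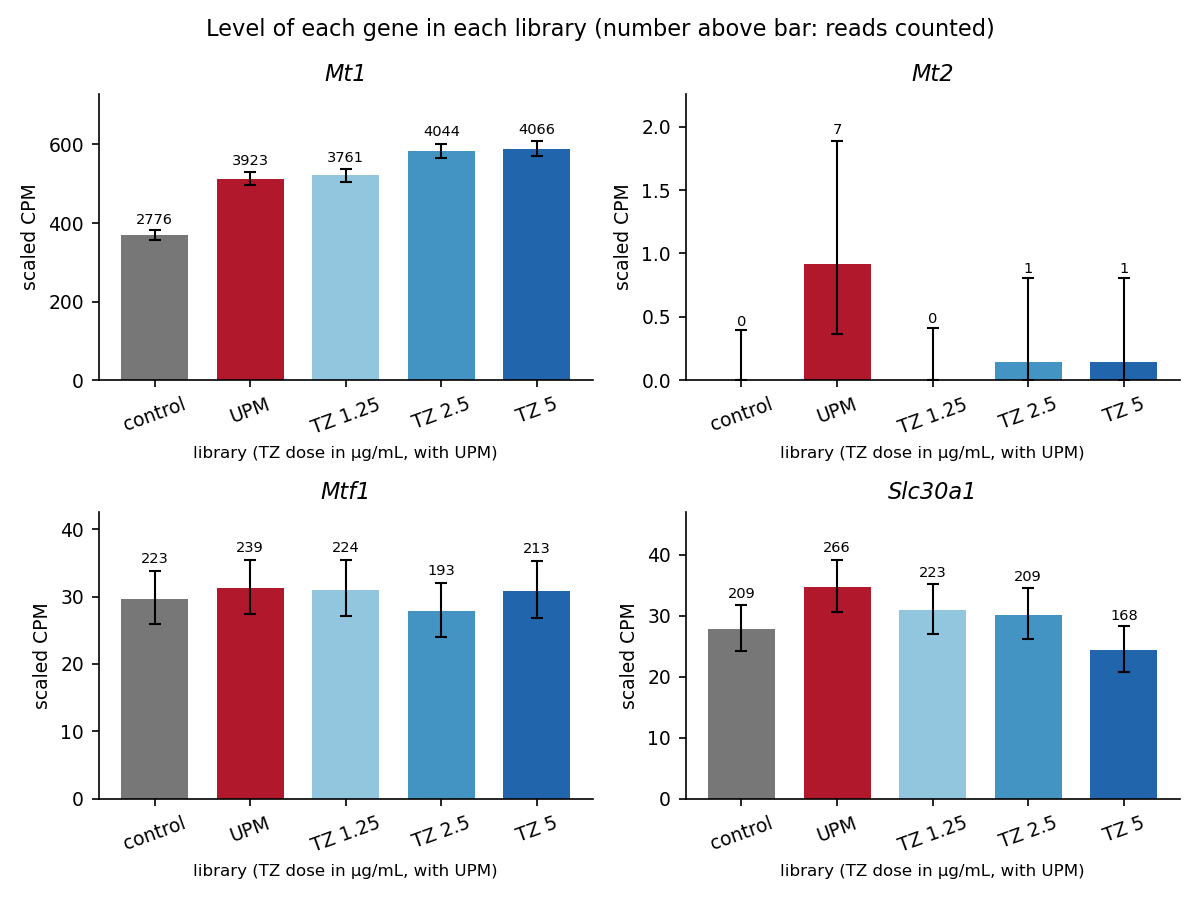
Level of each gene in scaled CPM (vertical axes, each from 0) in the 5 libraries; bars are single libraries, whiskers are 95% Poisson intervals for counting error (but drawn to the fixed limit of 3 counts where the count is 0), and numbers above them are reads counted. Mt1 forms 3 steps, Mt2 is near 0 with 7 reads in UPM, the 5 Mtf1 intervals overlap, and Slc30a1 is highest in UPM and lowest in TZ 5.

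Between neighbouring steps the Mt1 folds were small but well counted. UPM over control was 1.39-fold (1.32 to 1.46), which was place 269 from the highest of the 8282 genes measured in that pair. TZ 1.25 over UPM was 1.02-fold (0.972 to 1.06), an interval that holds 1. TZ 2.5 over UPM was 1.14-fold (1.09 to 1.19) and TZ 5 over UPM 1.15-fold (1.10 to 1.20), while TZ 2.5 over TZ 1.25 was 1.12-fold (1.07 to 1.17). Against UPM, Mt1 stood in place 1962 from the highest of 8337 genes in TZ 2.5 and 2128 of 8367 in TZ 5. Many genes therefore had larger folds in these comparisons. TZ 5 over TZ 2.5 was 1.01-fold (0.967 to 1.06), again an interval that holds 1.

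Set against the control, Mt1 was higher by 1.41-fold (1.34 to 1.48) in TZ 1.25, 1.58-fold (1.51 to 1.66) in TZ 2.5 and 1.60-fold (1.52 to 1.68) in TZ 5. The last 2 folds passed the 1.5-fold rule. That made Mt1 the single member of the 4 to pass it in TZ 2.5 and in TZ 5, while none passed it in TZ 1.25. The background of all genes passing the rule against the control was 2.38% for TZ 1.25, 3.62% for TZ 2.5 and 6.06% for TZ 5. These folds contain UPM and TZ together and share the control library.

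Mt2, the second ubiquitous metallothionein and usually induced together with Mt1, was hardly detected. It had 0 counts in control cells, 7 in UPM, and 0 with TZ 1.25, 1 with TZ 2.5 and 1 with TZ 5. In UPM that was 0.915 CPM (0.368 to 1.89), in TZ 2.5 0.144 (0.00366 to 0.804) and in TZ 5 0.145 (0.00367 to 0.808). The fixed limit of 3 counts for a count of 0 was 0.399 CPM in the control and 0.416 in TZ 1.25. The UPM interval overlapped those of TZ 2.5 and TZ 5 and reached below both of these limits. With the library at 0 set to 3 counts and the 7 UPM counts taken as free of error, UPM was at least 2.29-fold higher than the control. On the same terms TZ 1.25 was at least 2.20-fold lower than UPM. The exact counting intervals allow less, from 1.42-fold upward for UPM over control and up to 0.736-fold for TZ 1.25 over UPM. The ratio to UPM was 0.158 (0.00350 to 1.23) in TZ 2.5 and 0.158 (0.00352 to 1.23) in TZ 5, both intervals holding 1. Mt2 was below the 10 CPM minimum in every comparison and was too low for the test.

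Mt1 therefore gave 99.8% to 100% of the reads counted for this pair of genes, with the lowest share in UPM at 99.8% (99.6 to 99.9, exact binomial). Mt3, the brain metallothionein, and Mt4, that of stratified epithelium, were listed at 0 in all 5 libraries. A gene with at least 7 counts in 1 library and at most 1 in every other, as Mt2 was in UPM, occurred 13 times for UPM, 10 for the control, 4 for TZ 1.25, 11 for TZ 2.5 and 6 for TZ 5.

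Similarity between the 2 transcripts was checked against GENCODE release M21. Of the 75-base windows in the last 300 bases of each transcript, 0 of 302 for Mt1 and 0 of 230 for Mt2 occurred in another gene, and the longest stretch identical between Mt1 and Mt2 transcripts was 20 bases. An antisense gene, Gm45774, covers the 3′ end of Mt2 in that annotation and is not a symbol of these files. The sources used here do not say how reads that overlap both were counted, so the Mt2 values are uncertain, and the part of this overlap in the low counts was not tested.

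Slc30a1, the zinc exporter ZnT1, was highest in UPM and lowest in TZ 5. Its level was 27.8 CPM (24.2 to 31.9) in control cells, 34.8 (30.7 to 39.2) in UPM, and 30.9 (27.0 to 35.2) with TZ 1.25, 30.2 (26.2 to 34.6) with TZ 2.5 and 24.4 (20.8 to 28.3) with TZ 5, from 209, 266, 223, 209 and 168 counts. No neighbours in the order TZ 5, control, TZ 2.5, TZ 1.25, UPM differed beyond counting error, but the intervals of UPM and TZ 5 did not overlap. UPM over control was 1.2496-fold (1.04 to 1.51), just under the 1.25 limit, and 1.2539-fold with scaling by total counts, which passes it.

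Against UPM, Slc30a1 was at 0.889-fold (0.741 to 1.07) in TZ 1.25, 0.868-fold (0.721 to 1.04) in TZ 2.5 and 0.701-fold (0.574 to 0.854) in TZ 5. The last passed the 1.25-fold rule and stood in place 8002 from the highest of 8367 genes. Against the control, the TZ 5 library was at 0.876-fold (0.711 to 1.08), an interval that holds 1. Thus Slc30a1 was low in the TZ 5 library relative to UPM, while Mt1 was higher there than in UPM. Of the 75-base windows at the 3′ ends, 0 of 452 for Slc30a1 and 0 of 1130 for Mtf1 occurred in another gene.

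**Figure D3:**
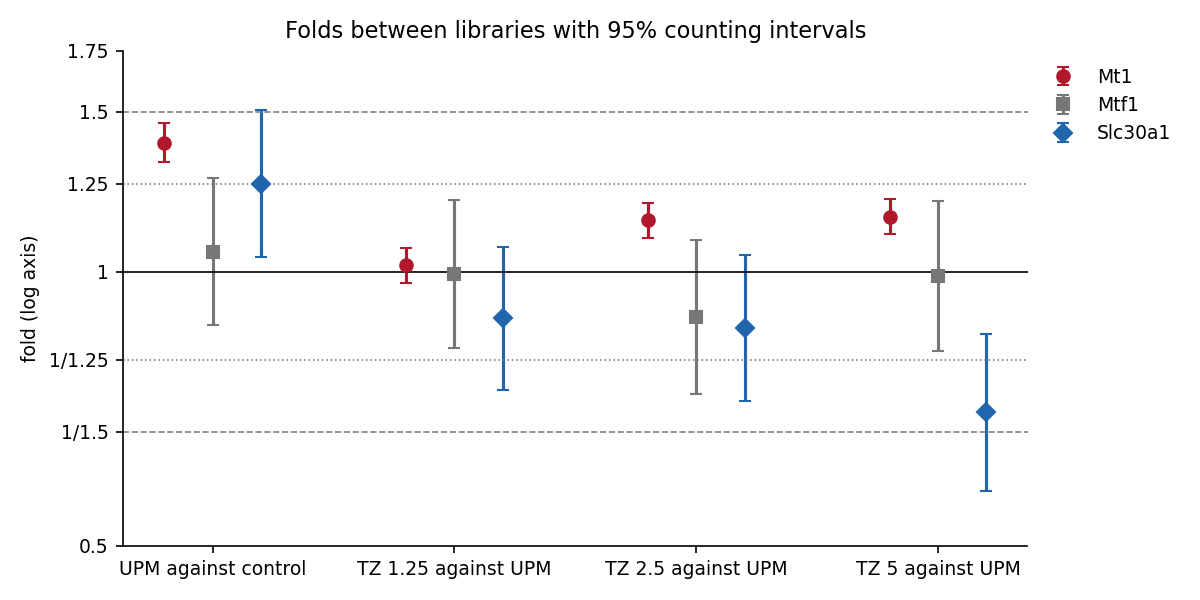
Folds of Mt1, Mtf1 and Slc30a1 (log vertical axis) in the 4 comparisons; points are ratios of scaled CPM between 2 libraries, whiskers 95% exact binomial intervals, dotted and dashed lines the 1.25-fold and 1.5-fold limits. Mt1 at UPM against control lies above the upper 1.25-fold line, and Slc30a1 at TZ 5 against UPM lies below the lower one at 0.701.

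By the 1.5-fold rule, 0 of the 3 members with enough reads passed in UPM against control, TZ 1.25 against UPM, TZ 2.5 against UPM or TZ 5 against UPM. The background of all genes passing was 3.08%, 2.22%, 4.40% and 6.57% in these comparisons. By the 1.25-fold rule, 1 of 3 (Mt1, higher) passed in UPM against control with a background of 14.7%, 0 of 3 in TZ 1.25 with 12.3%, 0 of 3 in TZ 2.5 with 20.8%, and 1 of 3 (Slc30a1, lower) in TZ 5 with 25.8%. A count of 1 in 3 is too small to be set apart from these backgrounds.

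Ratios of 2 genes within a library do not depend on scaling, and the ratio of Mt1 to Slc30a1 was chosen after the values were seen. There were 13.3 Mt1 counts per Slc30a1 count (11.5 to 15.4) in control cells, 14.8 (13.0 to 16.8) in UPM, and 16.9 (14.7 to 19.4) with TZ 1.25, 19.4 (16.8 to 22.3) with TZ 2.5 and 24.2 (20.7 to 28.4) with TZ 5. The control and UPM intervals overlapped, and that of TZ 5 lay above those of the control, UPM and TZ 1.25. Per Mtf1 count there were 12.5 Mt1 counts in control cells, 16.4 in UPM, and 16.8 with TZ 1.25, 20.95 with TZ 2.5 and 19.1 with TZ 5. Slc30a1 per Mtf1 count was 0.937, 1.11, 0.996, 1.08 and 0.789 in the same order, lowest in TZ 5. The read counts of different genes also depend on how well each 3′ end is captured, so the changes of these ratios across libraries are the comparison, not their size.

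**Figure D4:**
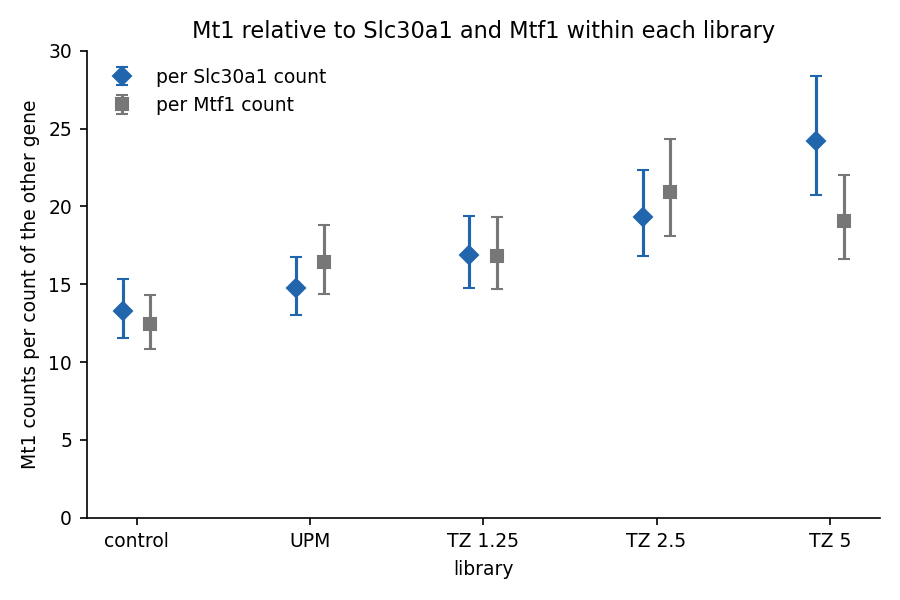
Mt1 counts per count of Slc30a1 (blue diamonds) and of Mtf1 (grey squares) in each of the 5 libraries, with 95% exact binomial intervals. The ratio to Slc30a1 runs from 13.3 in the control to 24.2 in TZ 5, and the ratio to Mtf1 is highest at 20.95 in TZ 2.5.

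To test TZ dose as a number, edgeR was run on the 5 libraries together with UPM (0 or 1) and linear dose as terms. It leaves 2 residual degrees of freedom beside 48.7 borrowed across genes, and takes the single control to vary as the UPM-exposed libraries do. In edgeR's quasi-likelihood test, with p-values adjusted by Benjamini-Hochberg over 12381 genes, the UPM term of Mt1 was 0.48 on the log2 scale (SE 0.10), adjusted p = 0.0316. The same term was 0.31 (SE 0.19, interval -0.06 to 0.69) for Slc30a1 with an adjusted p of 0.713 and 0.04 (SE 0.18) for Mtf1 with an adjusted p of 0.979 in edgeR's test. Thus 1 of 3 tested members passed the UPM term, where 14 genes in all, or 0.113%, passed. An unadjusted p under 0.05 was found for 1 of 3, beside 7.79% of all genes. The side without UPM is 1 library with no spread of its own, so this sets that library against the others and is no replicated test of UPM. The members were also chosen with earlier results of these data known. A share of them above that of all genes is therefore no separate result. The estimate for Mt1 was 0.49 without the UPM library and 0.58 without a dose term, but its adjusted p by edgeR was then 0.0853 and 0.659, above the limit, and the p ran from 0.00347 to 0.0853 with each UPM-exposed library left out in turn.

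For TZ dose the slope of Mt1 was 0.04 log2 per µg/mL (SE 0.02), with an unadjusted p of 0.0448 and an adjusted p of 0.270 by edgeR. The slope of Slc30a1 was -0.10 (SE 0.04), with an unadjusted p of 0.0185 and an adjusted p of 0.164 by edgeR. That of Mtf1 was -0.01 (SE 0.04), with an adjusted p of 0.961 by edgeR. So 0 of 3 passed, against a background of 5.44% of genes, while 2 of 3 had an unadjusted p under 0.05, as had 17.6% of all genes. DESeq2 also called 0 of the members, with an adjusted p of 0.259 for Mt1 and none given for Mtf1 and Slc30a1.

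The other zinc transporters were read from lists of the gene families. Of 10 Slc30 exporters, which move zinc out of the cytosol to the outside or into organelles, 6 had enough reads, Slc30a1 among them. In UPM against control 0 of 6 passed the 1.25-fold rule, beside 14.7% of all genes. Their median log2 fold was 0.18, beside -0.00470 over all genes. Slc30a5, which feeds zinc to the secretory pathway, was at 1.23-fold (1.03 to 1.46) and Slc30a9 at 1.21-fold (1.01 to 1.46), both under the limit.

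Against UPM, 1 of 6 exporters passed in TZ 1.25 beside 12.3% of all genes, 3 of 6 in TZ 2.5 beside 20.8% and 1 of 6 in TZ 5 beside 25.8%. The passing exporters were lower in each case, but in TZ 1.25 and TZ 5 their number was near or below the share of all genes. Their log2 folds had medians of -0.17, -0.27 and -0.20 beside all-gene medians of -0.00366, -0.00533 and 0.00462. Slc30a4, which loads zinc into vesicles, was at 93.4 CPM in control cells, 99.1 in UPM, and 76.9 with TZ 1.25, 78.7 with TZ 2.5 and 85.4 with TZ 5. Its folds were 0.777 (0.695 to 0.868) in TZ 1.25 and 0.794 (0.710 to 0.888) in TZ 2.5, and 0.862 (0.773 to 0.962) in TZ 5, short of the limit. Against the control, Slc30a4 was at 0.823-fold (0.735 to 0.921) in TZ 1.25 and 0.842-fold (0.751 to 0.943) in TZ 2.5. In TZ 5 it was at 0.914-fold (0.818 to 1.02) of the control, within counting error. In TZ 2.5, Slc30a7, of the early secretory pathway, was at 0.765-fold (0.614 to 0.95) and Slc30a9, of mitochondria, at 0.757-fold (0.625 to 0.915).

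Of 14 Slc39 importers, which bring zinc into the cytosol, 9 had enough reads. In UPM against control 0 passed higher and 1 lower, beside 14.7% of all genes passing either way, with a median of 0.06. That gene was Slc39a7, which releases zinc from the endoplasmic reticulum, at 193.9 CPM in control cells, 146.0 in UPM, and 192.2 with TZ 1.25, 177.0 with TZ 2.5 and 177.1 with TZ 5. The UPM library was the lowest of the 5, at 0.753-fold (0.696 to 0.814) of the control. TZ 1.25 was 1.32-fold (1.22 to 1.43) of UPM, and the other doses at 1.21-fold were short of the limit.

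Slc39a13, a transporter of the Golgi and its vesicles, was lower in all 3 TZ libraries. It was at 77.7 CPM in control cells, 75.0 in UPM, and 59.6 with TZ 1.25, 57.5 with TZ 2.5 and 55.1 with TZ 5. The folds against UPM were 0.794 (0.699 to 0.902), 0.766 (0.672 to 0.872) and 0.735 (0.644 to 0.838), each past the 1.25-fold rule. Its slope with dose was -0.08 log2 per µg/mL, with an adjusted p of 0.140 by edgeR. Besides these, Slc39a4 passed higher in TZ 1.25 at 1.27-fold (1.02 to 1.58), and Slc39a10 passed lower in TZ 2.5 at 0.605-fold (0.464 to 0.785). In all, against UPM, 2 importers were higher and 1 lower in TZ 1.25, 0 and 2 in TZ 2.5 and 0 and 1 in TZ 5, with medians of 0.06, -0.12 and -0.14. Out of 9, these counts are near or below the shares of all genes (12.3%, 20.8% and 25.8%) in TZ 2.5 and TZ 5. In edgeR's fit 0 of 6 exporters and 0 of 11 importers passed for either term, while 1 exporter and 1 importer had an unadjusted p under 0.05 for dose, beside 17.6% of all genes, and 0 and 1 for UPM, beside 7.79%.

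**Figure D5:**
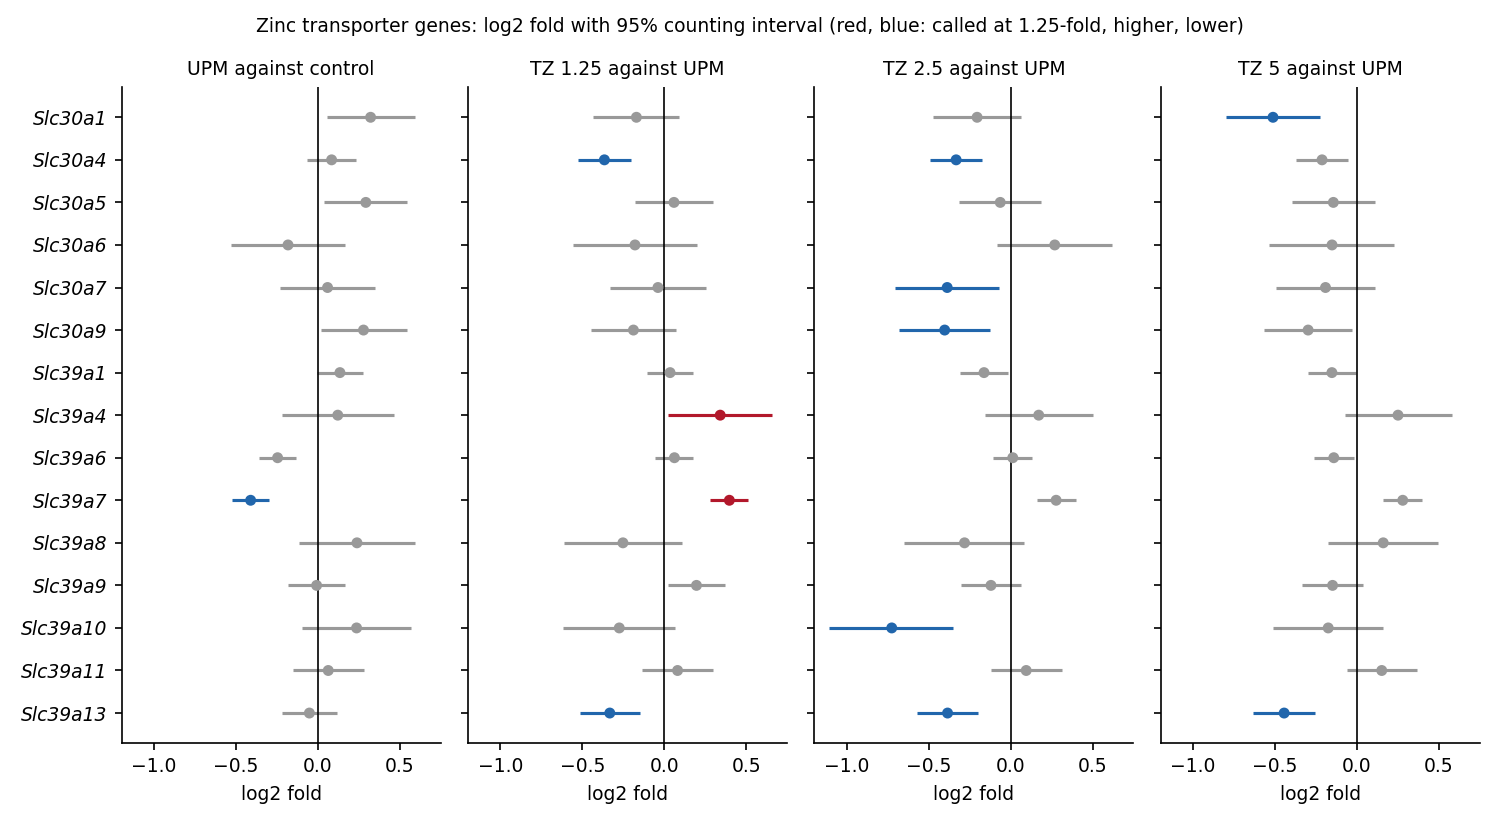
Log2 folds (horizontal axes) of the 15 Slc30 and Slc39 genes with enough reads in each of the 4 comparisons; points are ratios between 2 libraries, bars 95% exact binomial intervals, and colour marks genes past the 1.25-fold rule (red higher, blue lower). Slc39a7 is the single gene past it in UPM against control, and Slc39a13 is lower in all 3 TZ comparisons.

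Copper genes were followed because metallothioneins also bind copper. Of 12 names, 9 had enough reads in UPM against control. There Cox11, a copper chaperone of cytochrome oxidase, was lower at 0.619-fold (0.444 to 0.856). The other 8 did not pass the 1.25-fold rule, which 14.7% of all genes passed. Cox17, which hands copper to the same enzyme, was at 166.3 CPM in control cells, 169.5 in UPM, and 177.4 with TZ 1.25, 234.6 with TZ 2.5 and 250 with TZ 5. TZ 2.5 and TZ 5 stood apart from the other 3 libraries, at 1.38-fold (1.29 to 1.49) and 1.48-fold (1.37 to 1.59) of UPM. Its dose slope of 0.12 log2 per µg/mL (SE 0.02) passed, with an adjusted p of 0.000851 by edgeR, and it was 1 of 11 copper genes tested to pass for dose, beside 5.44% of all genes, while 0 of 11 passed the UPM term, beside 0.113%, and 0 had an unadjusted p under 0.05 for it. Against UPM, Cox11 also passed higher in TZ 1.25 at 1.48-fold (1.06 to 2.08), and Slc31a2, a low-affinity copper transporter, in TZ 5 at 1.27-fold. Cox11 was at 13.3 CPM in control cells, 8.23 in UPM, and 12.2 with TZ 1.25, 7.36 with TZ 2.5 and 11.5 with TZ 5. Both of its calls share the UPM library. In all, 1 of 9 copper genes passed in TZ 1.25, 1 of 8 in TZ 2.5 and 2 of 8 in TZ 5. The shares of all genes were 12.3%, 20.8% and 25.8%. The medians of the list were -0.04 in UPM against control and 0.06, 0.03 and 0.01 in the TZ comparisons.

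A list of 9 genes that metals and oxidants induce held 7 with enough reads. The list was chosen with earlier results of these data known, so a share of it above that of all genes is no separate result. In UPM against control 1 of 7 passed the 1.25-fold rule, near the 14.7% of all genes, with a median of 0.22. It was Gclm, the modifier subunit of glutathione synthesis. Gclm was at 62.2 CPM in control cells, 92.4 in UPM, and 96.5 with TZ 1.25, 101.6 with TZ 2.5 and 85.4 with TZ 5. The control was the lowest of the 5, as for Mt1, and the UPM term of Gclm, again with 1 library on the control side, was 0.65 (SE 0.14), adjusted p = 0.0314 by edgeR. Its adjusted p was 0.0725 without TZ 2.5 and 0.696 with no dose term in edgeR, and 0.275 in DESeq2, where the estimates were 0.62, 0.60 and 0.65. Gclm was 1 of 9 tested to pass that term, beside 0.113% of all genes, and 4 of 9 had an unadjusted p under 0.05, beside 7.79%, among them Hmox1, the haem-degrading enzyme, at 0.32 (SE 0.15) with an adjusted p of 0.625 by edgeR. Against UPM, Selenoh, a selenoprotein, passed higher in TZ 1.25 at 1.28-fold and in TZ 5 at 1.28-fold, and Slc7a11, the cystine importer, in TZ 5 at 1.48-fold (1.15 to 1.90), while 0 of 7 passed in TZ 2.5, so 1, 0 and 2 of 7 stood beside 12.3%, 20.8% and 25.8% of all genes. The medians were 0.15, 0.14 and 0.07, and 0 of 9 passed the dose term in edgeR's test, with 2 at an unadjusted p under 0.05 beside 17.6% of all genes.

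Glucocorticoids are the other classical inducers of Mt1, and 8 of their targets were followed, 7 with enough reads. In UPM against control 0 of 7 passed, beside 14.7% of all genes, with a median of -0.12. Against UPM, Sgk1, a kinase, was higher in TZ 1.25 at 1.35-fold, Fkbp5, a co-chaperone of the receptor, higher in TZ 2.5 at 1.38-fold, and Klf9, a transcription factor, lower in TZ 5 at 0.760-fold, with medians of 0.08, -0.08 and 0.02. These are 1 of 7 in each TZ library, near or below the 12.3%, 20.8% and 25.8% of all genes, and 0 of 8 passed either term in edgeR's test, with 0 for UPM and 1 for dose at an unadjusted p under 0.05, beside 7.79% and 17.6%.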

How the data were processed

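The authors deposited 1 file of whole-number counts by gene symbol for each library. Per the submitters' processing notes, STAR and edgeR were used with genome build GRCm39. The sources used here do not say which program and annotation gave the counts, whether strand was used, or whether the libraries came from separate cultures. The authors' counts were used as deposited, with no row left out.

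Python 3.11.15 (scipy 1.17.1) gave Poisson intervals of levels and exact conditional binomial (Clopper-Pearson) intervals of folds at 95%. TMM factors were computed over all genes before filtering. R 4.3.3 with edgeR 4.0.16 and limma 3.58.1 ran filterByExpr, glmQLFit and glmQLFTest, with an adjusted p under 0.05 as the limit. The fold rules and the dose slope were tried on simulated data with changes larger than those of the members. The UPM term was not tried in this way. DESeq2 1.42.0 was an alternative, as were scaling by total counts or by DESeq2 size factors, libraries thinned to the smallest total, mean CPM minimums of 1 and 30, no filter, dose as rank, no dose term, and each UPM library left out in turn. Folds of TZ against control, the Mt1 to Slc30a1 ratio and the alternatives for Gclm and Cox17 were added after the data were seen.

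Genes named are the 4 members, the Mt family, members of the lists that passed a rule, and up to 2 highest and 2 lowest of a list in a comparison. The members and lists were chosen with earlier results of these data known. The genes most like Mt1 have the smallest root mean square difference of centred log2 CPM among those of at least 30 CPM. Promoter sequences are from RefSeq (GRCm38.p6), matched by symbol for 4 of 4 members. One marker gene is not reported here.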

Additional observations from a re-analysis of the deposited data

How the results depend on the processing

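All 63 alternative values of the members' folds kept their side of the 1.5-fold limit. At the 1.25-fold limit the exception was Slc30a1 in UPM against control, given in the report. All 5 alternative values of the Mt1 to Slc30a1 ratio lay within the counting interval of the main ratio. The Mtf1 folds against UPM, within counting error of 1, crossed it in 2 alternatives, at 1.01 in TZ 1.25 with libraries thinned and at 1.0005 in TZ 5 with total counts. Of 49 alternative values of the members' fits, 45 held. The UPM term of Mt1 lost its call with no dose term (0.58, adjusted p = 0.659 by edgeR), and with a library left out it ran from 0.45 to 0.50, losing the call without UPM. The values of Mtf1, close to 0, reversed without UPM: its UPM term ran from -0.0013 to 0.10 and its slope from -0.067 to 0.0055 with a library left out. The cause of these shifts was not tested.

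Counts of all genes called moved with the CPM minimum. At 1 CPM the 1.5-fold rule called 957 in UPM against control, and 809 with TZ 1.25, 1028 with TZ 2.5 and 1218 with TZ 5, and at 30 CPM 46, 22, 107 and 219, where the main counts were 255, 185, 367 and 550. The 1.25-fold rule called 1959 and 1687 at 1 CPM in UPM against control and TZ 1.25, and 530, 383, 955 and 1281 at 30 CPM, against 1214, 1027, 1738 and 2161. The UPM term called 34 genes with no filter, 26 with dose as rank, 1 with no dose term and 14 to 80 with a library left out, against 14. Dose called 315 by DESeq2 and 209 to 576 with a library left out, against 674. No paired analysis was possible because each group had 1 library. Depth limits Mt2, with at most 7 counts, and leaves intervals of Mtf1 and Slc30a1 of more than 10% to either side.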

Other observations

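The genes whose pattern over the 5 libraries was most like that of Mt1 were Ccnk, a cyclin of transcription elongation, Map1lc3b, an LC3 protein of autophagosomes, Kank2, Pls3, an actin-bundling plastin, and Eaf1. Likeness was the root mean square difference of log2 CPM, each gene centred on its own mean, over 5297 genes with at least 30 CPM. It was 0.06 for Ccnk, 0.06 for Map1lc3b, 0.07 for Kank2, 0.07 for Pls3 and 0.08 for Eaf1. Ccnk was at 31.8 CPM in control cells, 41.3 in UPM, and 40.5 with TZ 1.25, 45.2 with TZ 2.5 and 46.6 with TZ 5. Map1lc3b was at 46.1, 68.6, 61.1, 72.6 and 75.3 CPM in the same order. Both were lowest in the control and highest in TZ 5, as Mt1 was. They were picked for likeness to Mt1 over these same 5 libraries, so that match is no separate result. Mtf1 stood in place 2172 of the 5297, with a difference of 0.25. Slc30a1, with a mean under 30 CPM, was not compared, and no such list was made for Mt2, at 0 in 2 libraries.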
